A study of Canis lupus familiaris with 5 samples.

Results

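Cycling pro-B cells of CD34-sorted canine bone marrow were examined by single-cell RNA sequencing. They were chosen by raw counts of unique molecular identifiers (UMIs, tags that mark single transcripts): at least 5 UMIs of VPREB1, less than 0.02% of UMIs from MPO, and at least 2 UMIs of MKI67 and TOP2A together. Barcodes entered with 200 or more genes and no more than 10% of UMIs from mitochondrial genes. The rule found 641 cells in sorted library 1 and 827 in sorted library 2, 1468 in all, out of 8485 sorted cells kept and 24708 cells kept in the whole series. The series profiled femoral marrow of 3 healthy dogs of genotype Wt. Viable CD34-positive cells, sorted after lysis of red cells from marrows 2 and 3, gave the 2 sorted libraries, and unsorted cells gave whole-marrow libraries 1 to 3. CD34 is a surface glycoprotein of stem cells, progenitors and early lymphoid precursors.

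Pro-B cells are committed B-lymphoid precursors that assemble the immunoglobulin heavy chain gene. RAG1 and RAG2 form the recombinase that cuts the gene segments, and DNTT adds nucleotides at the joins. VPREB1 encodes part of the surrogate light chain, which pairs with a finished heavy chain in the pre-B-cell receptor. In mouse and human marrow, B precursors alternate between recombination, when they rest in G1, and bursts of division, and RAG2 protein is degraded as cells enter S phase. MKI67 and TOP2A encode proteins of dividing cells.

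The cells were set against 4 other groups. These were the 1366 and 662 non-cycling pro-B cells of sorted libraries 1 and 2 (the same rule with fewer than 2 UMIs of MKI67 and TOP2A), the 434 and 327 cycling cells of the same libraries with a CD34 UMI, at most 1 VPREB1 UMI and little MPO (called cycling progenitors below), and the cycling and non-cycling pro-B cells that the same rule found in whole marrow. The whole-marrow groups held 73, 23 and 92 cycling and 112, 33 and 78 non-cycling cells in marrows 1 to 3. They were not sorted for CD34 and needed no CD34 UMI, so CD34-negative B precursors may be among them. Levels are CPM (the UMIs of a gene scaled to a fixed total of UMIs) after summing all cells of a group in a library, so a library is 1 sample.

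The markers fitted a label of cycling B-lineage precursors. VPREB1 reached a median of 49 and 73 UMIs a cell (sorted library 1 first, then 2), far above the minimum of 5, against 21 and 30 UMIs in non-cycling pro-B cells. MKI67 and TOP2A together reached a median of 17 and 30 UMIs, with 150 and 192 at most. These genes chose the cells, so their values are a description. Of the other markers given for these cells, DPEP1, a membrane dipeptidase, stood at 618 and 613 CPM, against 4.14 and 7.12 CPM in cycling progenitors. ASNS, asparagine synthetase, stood at 1246 and 760.0 CPM, against 57.8 and 36.4 CPM in cycling progenitors. All 12 measured genes of a 13-gene pro-B and pre-B list were detected in both libraries, a weak check in sums of so many cells. That list does not separate pro-B from pre-B cells. Markers of other cell types were low: 9 mature neutrophil genes summed to 151 and 157 CPM with MMP8, CD177 and PGLYRP1 at 0, 9 erythroid and megakaryocyte genes to 6.61 and 14.1 CPM with ALAS2 at 0, and 8 monocyte or macrophage genes to 112 and 249 CPM with C1QB at 0. CD79A, a chain of the B-cell receptor complex, does not tell these cells apart here: it stood at 8552 and 7782 CPM in cycling pro-B cells and at 11281 and 10949 CPM in cycling progenitors.

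CD34, the gene of the gate, was found in 70.8% and 42.7% of cycling pro-B cells, against 55.9% and 44.7% of non-cycling ones. Thinned to 3000 UMIs per cell, the shares were 49.8% and 21.7%, against 66.4% and 41.1%. Non-cycling cells below 3000 UMIs, 795 and 297 of them, could not be thinned, against 3 and 10 cycling cells. CD34 checks the sort and is not tested.

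Depth separated the cycling from the non-cycling cells. Cycling pro-B cells held a median of 9402 and 9319 UMIs and 2326 and 2425 genes, against 2545 and 3142 UMIs and 991.5 and 1173.5 genes in non-cycling pro-B cells. Cycling progenitors were deeper still, at 20924 and 23811 UMIs. After thinning to 3000 UMIs, cycling pro-B cells had a median of 1155 and 1187 genes, against 1045 and 1098 in non-cycling ones. Mitochondrial shares lay close together, at 6.71% and 8.19% against 6.17% and 7.84%. Of the cycling cells 10.3% and 6.29% were scored as likely doublets, against 3.95% and 2.11% of the non-cycling cells. A rule on raw UMIs finds cycling genes more easily in deep cells, so each comparison of the sorted groups was also run on cells of 10000 to 30000 UMIs alone (287 and 316 cycling, 210 and 108 non-cycling pro-B cells). These are called deep cells below. Their depth was closer but not equal, with medians of 14236 and 15883.5 UMIs in cycling and 12046.5 and 14504.5 in non-cycling pro-B cells. Cycling progenitors of that range stayed deeper, at 20080.5 and 21636 UMIs. Likely doublets stayed among the deep cells, and the fits on deep cells were not run without them. Removing likely doublets at all depths left 1312 of 1366 and 648 of 662 non-cycling pro-B cells. It left 5637245 of 6520210 and 3223500 of 3442649 of their UMIs. How many deep cells were likely doublets was not counted. The libraries shared 4 to 12 barcodes in pairs, and 0 barcodes of cycling pro-B cells were shared.

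**Figure D1:**
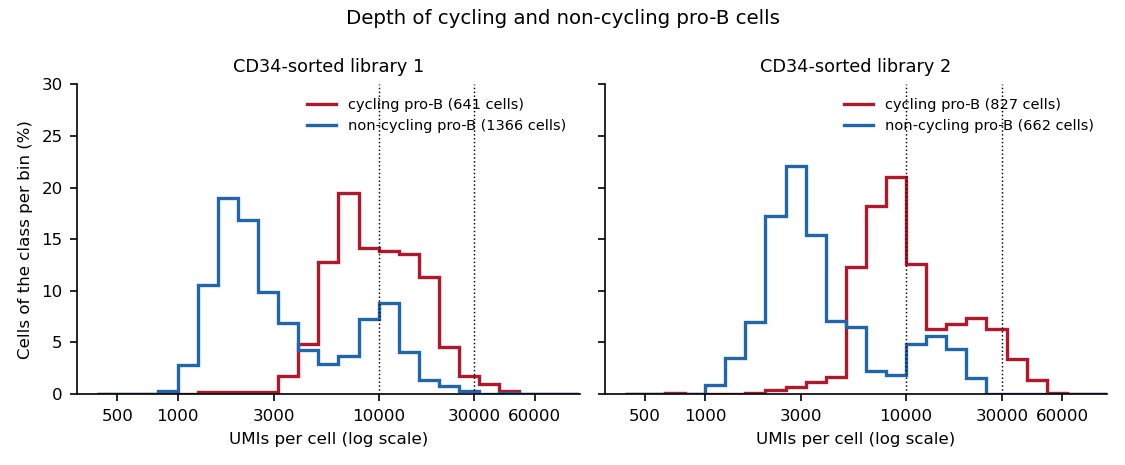
UMIs per cell (horizontal, log scale) of cycling (red) and non-cycling (blue) pro-B cells in sorted libraries 1 and 2, as the share of each group per bin (vertical, percent); dotted lines mark 10000 and 30000 UMIs. Cycling cells had medians of 9402 and 9319 UMIs and non-cycling cells of 2545 and 3142 UMIs, the non-cycling cells with a second, smaller peak around or above 10000 UMIs in both libraries.

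Few cells lay at the edge of the rule. With 2 cycling UMIs there were 65 and 45 cells and with 3 there were 31 and 34, inside the rule, while 149 and 101 pro-B cells had 1 such UMI and 1217 and 561 had none. VPREB1 was at 5 or 6 UMIs in 31 and 5 pro-B cells, and 40 and 35 otherwise similar cells had 3 or 4 VPREB1 UMIs and were left out. Raising the limit to 4 cycling UMIs or to 10 VPREB1 UMIs kept every call named below for cycling against non-cycling sorted pro-B cells.

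The first question was how much of the pro-B pool was in cycle. Cycling cells made up 31.9% (exact binomial 95% interval 29.9 to 34.0) of the pro-B cells in sorted library 1 and 55.5% (53.0 to 58.1) in sorted library 2. In whole marrow the same rule gave 39.5% (32.4 to 46.9), 41.1% (28.1 to 55.0) and 54.1% (46.3 to 61.8) in marrows 1 to 3. The intervals cover counting error only. With at least 10 VPREB1 UMIs, a limit tried after seeing the data, the shares were 33.2% and 56.2% in sorted libraries, against 40.9%, 46.5% and 76.2% in marrows 1 to 3, where 25 of 78 non-cycling cells of marrow 3 remained (difference -9.82 points, p = 0.7, exact permutation test). With the limit of 5 UMIs the 2 sorted libraries lay on either side of the whole-marrow values, and the means were 43.7% ± 16.7 (SD, n = 2) and 44.9% ± 8.04 (SD, n = 3). The difference of -1.14 percentage points gave p = 1 in an exact two-sided permutation test over 10 splits, whose smallest possible p is 0.1. Thinned to 3000 UMIs, the shares were 48.4% and 61.7%, against 61.5%, 72.9% and 61.6% (difference -10.3 points, p = 0.3 in the same exact permutation test). In cells of 10000 to 30000 UMIs the difference was -23.4 points (p = 0.2, exact permutation test). Without sorted library 1 the difference over all cells was 10.7 points. All these tests treat the libraries as independent, although the sorted libraries came from marrows 2 and 3, and they ignore that pairing.

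Over all cells, cycling pro-B cells carried less recombinase message than non-cycling pro-B cells of the same libraries, a difference that did not pass the test in deep cells. They carried more message of one-carbon and nucleotide enzymes, and less of ribosomal protein genes and of several receptors of early lymphoid cells. Since cycling genes chose the cells, rises of genes tied to division, those of nucleotide synthesis among them, are a description. Counts summed per library and group entered the quasi-likelihood test of edgeR, with the library as a block and Benjamini-Hochberg adjustment over all genes. Of 10148 genes tested, 33.1% passed 0.05 (15% higher and 18.1% lower in cycling cells), and the median log2 fold change was -0.09. With n = 2 libraries and a library block, p-values rest on how far differences between groups varied between libraries, pooled over 6 groups of cells. On cells of 10000 to 30000 UMIs, 22.6% of 9297 genes passed, 1142 higher and 962 lower. At no more than 5% mitochondrial UMIs, which left 81 and 22 cycling and 350 and 46 non-cycling cells, 684 genes passed, and of the genes named below 20 lost their call and 4 (CDK6, MYC, DPEP1 and BCL2) turned.

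Both recombinase genes were lower in cycling cells. RAG1 stood at 23.1 and 7.83 CPM in cycling pro-B cells of sorted libraries 1 and 2, against 110.1 and 73.2 CPM in non-cycling ones. Its level was lower in cycling cells of both libraries with no overlap (log2 fold change -2.72 ± 0.20 SE, edgeR adjusted p = 5.55e-07). RAG2 stood at 19.3 and 10.8 CPM, against 34.0 and 31.4 CPM (-1.20 ± 0.20, edgeR adjusted p = 6.92e-05). DNTT remained abundant while lower, at 1653 and 1530.1 CPM against 2356 and 2846 CPM (-0.75 ± 0.09). LIG4, the ligase of end joining, fell by 0.79 on the log2 scale, and XRCC4, its partner, rose by 0.69. Of 12 tested genes of the recombination and end-joining list, 4 fell and 1 rose (median 0.03), beside 18.1% and 15% over all genes. In deep cells 1 of 11 fell and 0 rose (median 0.08). The share of thinned cells with a RAG1 UMI was 7.05% and 3.18% in cycling pro-B cells, against 14.7% and 14.5% in non-cycling ones and 0% of 434 and 327 cycling progenitors (unthinned 17.9% and 8.83%, against 34.3% and 24.8%, and 0% and 0.306% in cycling progenitors).

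RAG1 moved with depth among the non-cycling cells. They held 326 and 203 CPM of RAG1 below 3000 UMIs, 68.6 and 80.8 CPM from 3000 to 10000 UMIs, and 23.1 and 13.5 CPM from 10000 to 30000 UMIs. Cycling cells held 31.0 and 12.7 CPM from 3000 to 10000 UMIs and 19.1 and 6.61 CPM from 10000 to 30000 UMIs. They were lower within both ranges in both libraries, but by less at high depth. In cells of 10000 to 30000 UMIs the log2 fold change of RAG1 was -0.62 ± 0.30 (edgeR adjusted p = 0.147), that of RAG2 was 0.39 ± 0.35 (0.474) and that of DNTT was -0.54 ± 0.20 (0.119), while LIG4 kept its call (-0.63 ± 0.20, edgeR adjusted p = 0.0245). XRCC4 gave 0.58 there and did not pass (edgeR adjusted p = 0.143).

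**Figure D2:**
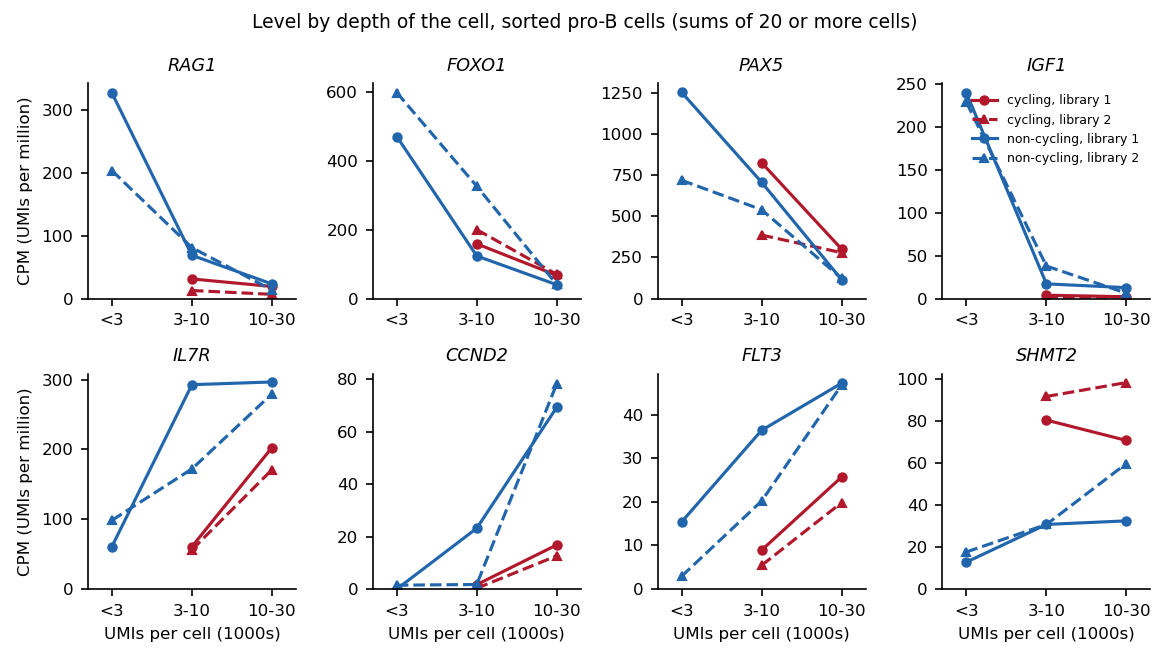
Summed level (CPM, vertical) of 8 genes in cycling (red) and non-cycling (blue) pro-B cells of the sorted libraries, by UMIs per cell (horizontal, below 3000, 3000 to 10000 and 10000 to 30000), for sums of 20 or more cells, 1 line per library. RAG1, FOXO1 and PAX5 fell with depth in non-cycling cells, IL7R, CCND2 and FLT3 were higher in non-cycling than in cycling cells of 10000 to 30000 UMIs, and SHMT2 was higher in cycling cells in both ranges shown for them.

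B-lineage transcription factors were mostly lower over all cells. Of 21 tested, 13 were lower and 2 higher in cycling cells (median log2 fold change -0.38), beside 18.1% and 15% over all genes. FOXO1, which drives RAG transcription in mouse, stood at 94.9 and 104 CPM against 170.2 and 245 CPM (-1.09 ± 0.09, edgeR adjusted p = 3.95e-09). PAX5, the commitment factor, stood at 469 and 297 CPM against 577 and 378 CPM (-0.38 ± 0.08). EBF1, which specifies the B lineage, fell by 0.29, TCF3, the E2A gene, by 0.55, BACH2 by 1.05, MYB by 0.92, SOX4 by 0.72 and MEF2C by 0.62. POU2AF1, a B-cell coactivator, rose by 0.47.

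At 10000 to 30000 UMIs the direction of several of these factors turned. There 6 of 21 factors were higher and 2 lower (median 0.26), 38.1% called beside 22.6% over all genes. PAX5 then stood at 300.3 and 278 CPM in cycling cells, against 115 and 123 CPM in non-cycling ones (1.22 ± 0.10, edgeR adjusted p = 2.39e-09), and FOXO1 at 67.1 and 70.1 CPM, against 40.0 and 40.6 CPM (0.68 ± 0.14, edgeR adjusted p = 0.000897). EBF1 (0.69), POU2AF1 (2.17) and LEF1 (1.24) were higher as well, and SOX4 stayed lower (-0.63). TCF3 (0.62, edgeR adjusted p = 0.0508), BACH2 (0.31), MEF2C (0.22) and MYB (-0.32) did not pass. IRF4 depended on the library: it stood at 3.94 and 69.0 CPM in cycling cells against 3.37 and 21.2 CPM in non-cycling cells of libraries 1 and 2, and rose by 1.33 over all cells (edgeR adjusted p = 0.00583) and by 1.89 in deep cells (edgeR adjusted p = 0.000311). The call over all cells was lost without likely doublets (1.25).

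Genes of the pre-B-cell receptor and its signalling also depended on depth. Over all cells 3 of 13 tested fell and 1 rose (median -0.18), near the 33.1% called over all genes. At 10000 to 30000 UMIs 3 fell and 4 rose (median 0.19), 53.8% called beside 22.6% over all genes. VPREB3, a surrogate light chain partner, stood at 411 and 446 CPM in cycling cells against 241 and 331 CPM (0.55 ± 0.08, and 1.70 ± 0.23 in deep cells). IGHM, the mu heavy chain, stood at 428 and 462 CPM against 390.0 and 478 CPM (-0.01 ± 0.22, edgeR adjusted p = 0.983) and was higher in deep cells (0.57 ± 0.16, edgeR adjusted p = 0.0197). The surface protein gene CD72 gave -0.18 over all cells (edgeR adjusted p = 0.369) and rose by 1.91 in deep cells. SYK, the kinase of the receptor, fell by 0.87 over all cells and by 0.35 in deep cells. CD79A fell by 0.46 and 0.49, but it stood high in cycling progenitors too and does not mark B-lineage cells here.

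**Figure D3:**
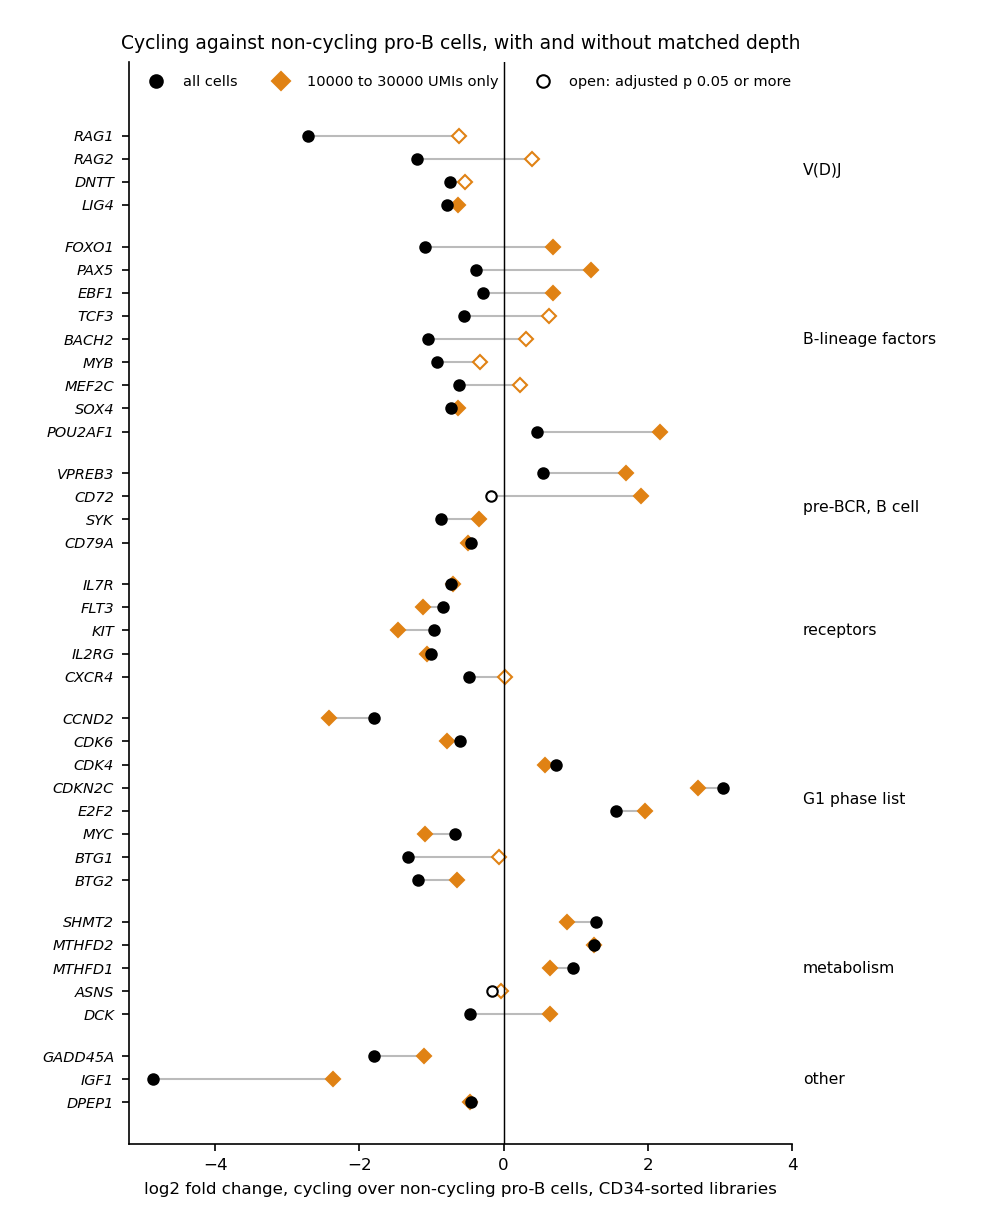
Log2 fold change of cycling over non-cycling sorted pro-B cells (horizontal) for named genes by group (vertical), over all cells (black circles) and over cells of 10000 to 30000 UMIs (orange diamonds); open symbols have an edgeR adjusted p of 0.05 or more. PAX5, FOXO1, EBF1 and CD72 lie left of 0 over all cells and right of it at matched depth, while IL7R, FLT3, KIT, CCND2 and IGF1 lie left of 0 and SHMT2, MTHFD2, CDK4 and CDKN2C right of it in both.

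Several receptors of early lymphoid precursors, among them IL7R, FLT3, KIT and IL2RG, were lower in cycling cells over all cells and in deep cells. Of 14 genes of that list tested, 9 fell and 0 rose (median -0.62), beside 18.1% and 15% over all genes. In deep cells 4 of 13 fell and 0 rose (median -0.63), 30.8% called beside 22.6% over all genes. IL7R, the interleukin-7 receptor chain that B precursors of mice depend on, stood at 149 and 129.9 CPM against 237 and 208 CPM (-0.73 ± 0.08, edgeR adjusted p = 5.08e-07), and the value in deep cells was -0.70 ± 0.11 (edgeR adjusted p = 2.67e-05). In those cells IL7R stood at 203 and 171 CPM against 297 and 279.5 CPM, without overlap. FLT3, a receptor of lymphoid-primed progenitors, stood at 20.7 and 17.6 CPM against 35.7 and 29.3 CPM (-0.83 ± 0.14, and -1.12 ± 0.15 in deep cells). KIT, the stem cell factor receptor, fell by 0.97 and by 1.46 in deep cells, and IL2RG, the common chain that pairs with IL7R, by 1.01 and 1.06. Without likely doublets KIT gave -1.68 and lost its call over all cells. The homing receptor CXCR4 fell by 0.48 over all cells and gave 0.02 in deep cells.

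The G1 machinery shifted in composition: 7 of 20 tested genes rose and 7 fell (median 0.15), beside 15% and 18.1% over all genes. In deep cells 6 rose and 4 fell (median 0.13), 50% called beside 22.6% over all genes. CCND2, cyclin D2, stood at 13.9 and 9.62 CPM in cycling cells against 37.9 and 37.8 CPM in non-cycling cells (-1.80 ± 0.21, a 3.48-fold lower level, edgeR adjusted p = 5.39e-05). In deep cells CCND2 stood at 16.8 and 12.7 CPM against 69.2 and 78.2 CPM (-2.42 ± 0.17). CDK6, a partner kinase of the D cyclins, fell by 0.61 and MYC by 0.67, and both were lower in deep cells too (-0.79 and -1.08), but at 5% mitochondrial UMIs they gave 0.051 and 0.74. The other partner kinase, CDK4, stood at 395 and 425 CPM against 223 and 254 CPM (0.73 ± 0.06), and CDKN2C, the p18 inhibitor of both kinases, at 32.3 and 56.8 CPM against 3.22 and 7.84 CPM (3.04 ± 0.29, 8.23-fold, edgeR adjusted p = 2.84e-06). The E2F genes E2F2 and E2F8 rose by 1.56 and 3.56. Rises in this list may follow from the split by cycling genes and are a description. The antiproliferative genes BTG1 and BTG2 fell (-1.33 and -1.19), and in deep cells BTG2 was lower (-0.64) while BTG1 gave -0.07 (edgeR adjusted p = 0.872).

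In metabolism, cycling cells had more message of folate one-carbon enzymes but not of ASNS. Of 18 tested genes of the asparagine, serine and one-carbon list 7 rose and 2 fell (median 0.39), beside 15% and 18.1% over all genes. In deep cells 7 of 17 rose and 0 fell (median 0.60), 41.2% called beside 22.6% over all genes. SHMT2, which moves a carbon from serine to folate in mitochondria, stood at 72.8 and 95.3 CPM against 27.3 and 41.8 CPM (1.28 ± 0.15, 2.43-fold, edgeR adjusted p = 1.51e-05). MTHFD2 (1.26), MTHFD1L (0.97) and MTHFD1 (0.96), further folate enzymes, rose too, and all 4 kept their calls in deep cells. ASNS stood at 1246 and 760.0 CPM against 1186 and 937 CPM, with overlapping groups (-0.17 ± 0.10, edgeR adjusted p = 0.241). DPEP1 stood at 618 and 613 CPM against 764 and 871 CPM (-0.46 ± 0.12, edgeR adjusted p = 0.0197; 0.083 at 5% mitochondrial UMIs). Among nucleotide enzymes 9 of 17 rose and 1 fell (6 and 0 in deep cells). The rises, a description since cycling genes chose the cells, included the thymidylate pathway genes DUT (610 and 745 CPM against 105 and 98.5 CPM, 2.68 ± 0.09) and TYMS (1.35). The 1 that fell, the salvage kinase DCK, gave -0.46 over all cells and 0.65 in deep cells, called in both.

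Ribosomal protein genes fell in 52 of 54 cases and rose in 0 (median -0.39), and in deep cells in 54 of 54 (median -0.44). Of 56 nuclear-encoded respiration genes 21 rose and 3 fell (median 0.13), and in deep cells 12 rose and 0 fell. Of 15 glycolysis genes 6 rose and 1 fell (median 0.26), and in deep cells 2 rose and 1 fell. Of 16 cholesterol synthesis genes 2 rose and 1 fell (median 0.04), and in deep cells 1 of 15 rose and 0 fell. In the survival and death list 1 of 15 rose and 4 fell (median -0.27), while in deep cells 1 of 14 rose and 1 fell (median 0.19). Over all genes 15% rose and 18.1% fell, and 22.6% were called in deep cells. Called shares in deep cells were 21.4% for respiration, 20% for glycolysis, 6.67% for cholesterol synthesis and 14.3% for survival genes, all below that. The death effector BID rose by 0.83, and the survival gene BCL2 stood at 16.2 and 19.4 CPM against 20.4 and 28.2 CPM (-0.51 ± 0.14, -0.89 in deep cells and 0.14 at 5% mitochondrial UMIs).

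IGF1, an insulin-like growth factor, was among the 10 genes with the largest falls. It stood at 2.81 and 1.79 CPM in cycling cells against 68.1 and 60.4 CPM in non-cycling cells (-4.86 ± 0.25, 29.0-fold lower, edgeR adjusted p = 5.94e-11). Its level in non-cycling cells was 239 and 228 CPM below 3000 UMIs and 12.6 and 6.16 CPM from 10000 to 30000 UMIs, where cycling cells held 2.05 and 1.65 CPM (-2.37 ± 0.40, edgeR adjusted p = 0.000136). GADD45A, a stress gene that slows the cell cycle, stood at 56.6 and 56.5 CPM against 169.8 and 214 CPM (-1.80 ± 0.22) and was lower in deep cells (-1.11). Of the other genes with the largest falls, ADGRL2 had 5 and 5 UMIs against 57 and 16, TCP11L2 had 11 and 7 against 65 and 36, and FHOD3 had 7 and 11 against 77 and 29. ABHD12B, ZNF385B, DKK4, DHDH and SLC2A12 passed the test on at most 19 UMIs in non-cycling cells of both libraries together.

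The largest rises were cell division genes, which follow from the choice of cells and are given as description. All 48 tested genes of the G2 and mitosis list and 32 of 40 replication genes were higher, with medians of 4.27 and 0.85 (47 of 47 and 27 of 39 in deep cells). NUSAP1, a spindle protein, stood at 327 and 296 CPM against 1.99 and 4.36 CPM, and ASPM at 636 and 835 CPM against 6.75 and 6.10 CPM. CKAP2L, DEPDC1, UBE2C, PIMREG and CCNB3 were also among the 10 largest. The other 3 had 0 UMIs in non-cycling cells: the histone gene H2AC14 (42 UMIs in cycling cells, at least 7.87-fold higher against a floor of 3 counts over the group), the imprinted gene PEG10 (41 UMIs, at least 7.69-fold) and the cytokine gene IL36G (30 UMIs, at least 5.62-fold).

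**Figure D4:**
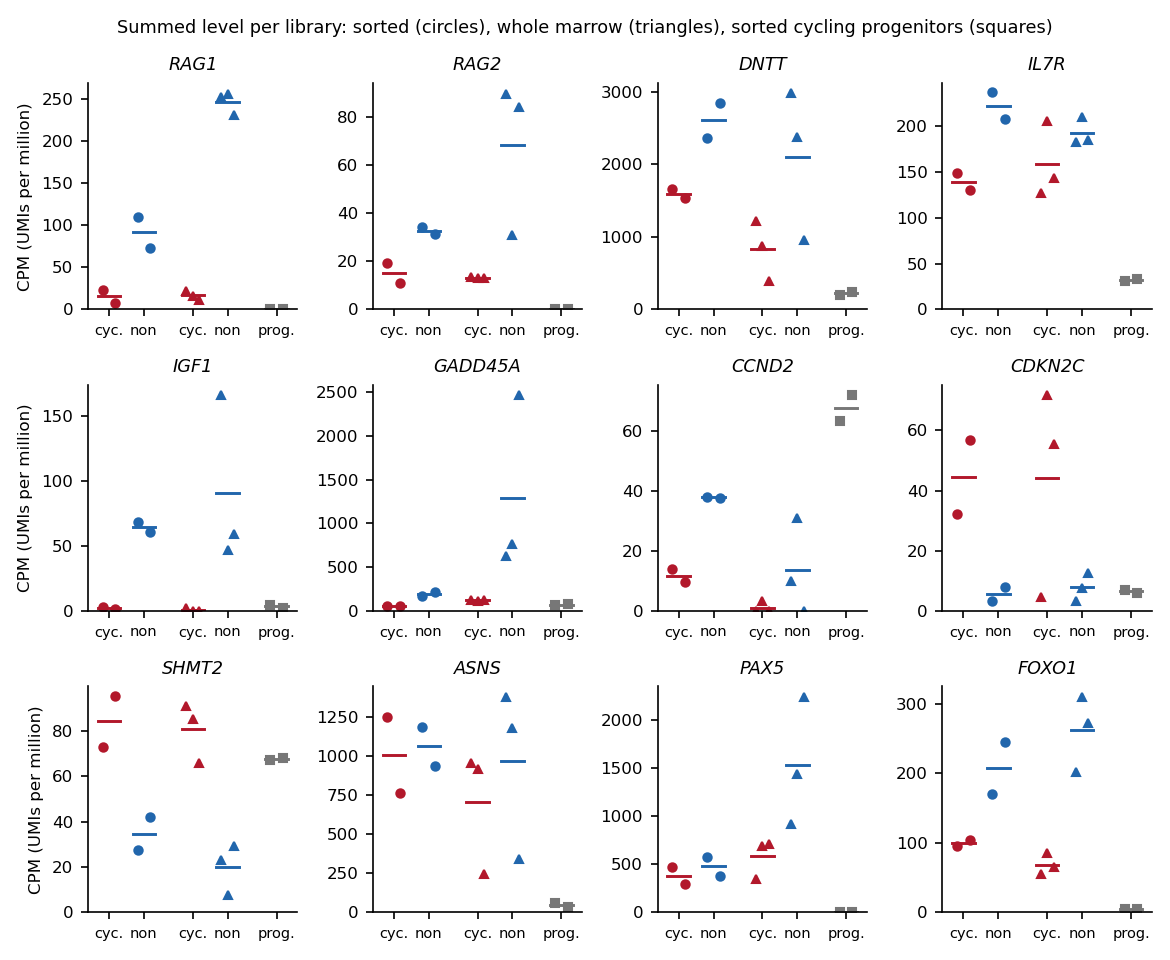
Summed level per library (CPM, vertical) of 12 genes in cycling and non-cycling pro-B cells of the sorted libraries (circles) and of whole marrow (triangles), and in sorted cycling progenitors (squares); bars are means over the 2 or 3 libraries. RAG1, IGF1, GADD45A and FOXO1 were lower in cycling than in non-cycling pro-B cells of all 5 libraries, SHMT2 was higher in all 5, and ASNS overlapped in both pairs of groups.

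The same rule was applied to the 3 whole-marrow libraries to see whether these differences recur in cells not sorted for CD34. Such cells may differ in stage from the sorted ones. The cells were matched neither in depth nor in free RNA: cycling cells had a median of 9788, 9248 and 12527 UMIs and non-cycling cells of 2204, 2074 and 2353 UMIs in marrows 1 to 3. The 9 mature neutrophil genes summed to 7973, 5094 and 5269 CPM in cycling and 24756, 18180 and 49724 CPM in non-cycling cells, whose part in the differences was not tested. Of 3491 genes tested 28.2% passed, 14.6% higher and 13.6% lower. Of 3482 genes tested in both settings, 466 rose in both, which is 46.5% of the 1003 rises in sorted cells and 91.7% of the 508 in whole marrow. The falls shared 360 genes, 42.3% of the 851 in sorted cells and 76.8% of the 469 in whole marrow. FADS1, SRI and VPREB3 rose in sorted cells and fell in whole marrow, and 0 genes did the reverse. The fall of VPREB3 in whole marrow turned to 0.45 with at least 10 VPREB1 UMIs.

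RAG1 and DNTT fell in whole marrow as well. RAG1 stood at 22.0, 16.3 and 11.2 CPM in cycling cells against 252, 256 and 231 CPM in non-cycling cells of marrows 1 to 3, with no overlap (-3.89 ± 0.26, edgeR adjusted p = 1.82e-08). DNTT stood at 1222, 875 and 394 CPM against 2978, 2368 and 957 CPM (-1.34 ± 0.18), lower within each marrow. RAG2 was too low for the test, at 13.4, 13.1 and 13.1 CPM against 89.5, 31.0 and 84.0 CPM. Of 5 tested recombination genes 2 fell and 0 rose (median -0.24, beside -0.04 over all genes).

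Of 19 B-lineage factors 11 fell and 0 rose in whole marrow (median -0.90), with FOXO1 at -1.94 ± 0.20, PAX5 at -1.38 ± 0.18 and EBF1 at -1.02 ± 0.24. Of 9 pre-B-cell receptor genes 6 fell and 0 rose (median -0.71). VPREB3 stood at 79.6, 411 and 564 CPM in cycling cells, against 96.2, 427 and 1117 CPM in non-cycling cells, and passed narrowly (-0.51 ± 0.19, edgeR adjusted p = 0.0495). SHMT2 rose by 1.84, MTHFD1L by 1.58 and CDK4 by 1.12. E2F8 rose by 3.67 and DUT by 2.60, again a description. ASNS fell here by 0.46 (edgeR adjusted p = 0.0448) and DPEP1 by 0.91. IL7R stood at 127, 206 and 143 CPM against 182, 209.6 and 185 CPM, lower in each marrow but not past the test (-0.33 ± 0.20, edgeR adjusted p = 0.233). IGF1 was down to 2, 0 and 0 UMIs in cycling cells against 50, 6 and 14 UMIs, a pooled ratio of 154 (counting interval 41.2 to 1300.25). BCL2L1, the survival gene that encodes BCL-XL, stood at 5.75, 6.53 and 8.12 CPM against 73.0, 62.1 and 50.4 CPM (-3.07 ± 0.44), and GADD45A at 127, 111 and 128 CPM against 627, 768 and 2465 CPM (-3.18 ± 0.43). Ribosomal protein genes fell in 2 of 54 cases in whole marrow (median -0.13).

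The next comparison set cycling pro-B cells against cycling progenitors of the same 2 libraries, to describe how dividing B precursors differ from other dividing CD34-positive cells. VPREB1 split these groups, so higher levels of other B-lineage genes can follow from the choice of cells and are a description. Of 10147 genes 48.7% passed (24% higher, 24.7% lower in pro-B cells). Of 21 B-lineage factors 16 rose and 3 fell (median 1.41, beside 0.01 over all genes). PAX5 stood at 469 and 297 CPM in cycling pro-B cells against 1.63 and 1.65 CPM in progenitors (7.74 ± 0.15, edgeR adjusted p = 4.78e-20). EBF1 was at 116 and 128 CPM against 1.09 and 0.890 CPM (6.78 ± 0.16), and POU2AF1 and LEF1 rose by 7.12 and 6.29. The 3 that fell, SPI1 (-1.38), IRF8 (-1.92) and RUNX1 (-0.31), are also factors of myeloid and multipotent cells, and RUNX1 lost its call in deep cells (-0.13).

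Of 13 pre-B-cell receptor genes 8 rose and 3 fell, also a description. VPREB3 stood at 411 and 446 CPM against 0.979 and 0.890 CPM (8.68 ± 0.15), and CD72, CD79B, BLNK and IGHM rose by 7.03, 4.01, 4.22 and 2.72. The falls included CD79A (-0.57), which stood high in both groups. RAG1 and RAG2 had 247 and 252 UMIs in cycling pro-B cells and 1 UMI each in cycling progenitors, ratios of 238 (counting interval 42.3 to 9427) and 243 (43.1 to 9617). DNTT was also expressed in progenitors, at 197 and 242 CPM, and was 6.69-fold higher in cycling pro-B cells (2.74 ± 0.10).

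Surface and secreted products differed too. IGF2, an insulin-like growth factor, had 865 UMIs in cycling pro-B cells and 1 UMI in progenitors (ratio 833, counting interval 149 to 32921), and the chemokine scavenger ACKR4 had 362 UMIs and 0 UMIs, at least 116-fold higher. IL7R stood at 149 and 129.9 CPM against 30.9 and 32.9 CPM (2.00 ± 0.09) and CXCR4 rose by 1.56. KIT stood at 13.4 and 9.24 CPM against 81.8 and 97.8 CPM (-3.15 ± 0.18), and FLT3 fell by 1.20. CALCRL, an adrenomedullin receptor, and CSF3R, the G-CSF receptor, had 0 UMIs in cycling pro-B cells and 39 and 16 UMIs in progenitors, at least 13.5-fold and 5.54-fold lower.

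The G1 genes of the lineages differed. CCND1 and CCND2 were lower in cycling pro-B cells (3.51 and 6.89 CPM against 35.4 and 58.6 CPM, and 13.9 and 9.62 CPM against 63.4 and 71.9 CPM; -3.27 ± 0.22 and -2.69 ± 0.18), while CCND3, cyclin D3, stood at 30.6 and 28.0 CPM against 3.37 and 1.91 CPM (3.31 ± 0.22, edgeR adjusted p = 7.45e-11). E2F2 rose by 3.50, CDKN2C by 2.60 and CCNE2, a cyclin of the G1 to S step, by 1.59. Of 20 genes of this list 9 rose and 5 fell. The 6 genes named kept their calls in deep cells, where 8 of 20 rose and 3 fell.

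Cycling pro-B cells carried more ASNS (4.28 ± 0.12, 19.4-fold) and more PSAT1, of serine synthesis, and SLC7A5, an amino acid transporter (2.69 and 2.07), and 8 of 18 genes of that list rose and 3 fell (median 0.27). PSAT1 differed between the libraries, at 251 and 64.4 CPM against 40.4 and 7.25 CPM. DCK rose 8.61-fold (164 and 133 CPM against 16.4 and 15.0 CPM), BCL2L11, which acts in cell death, by 2.25 on the log2 scale, and BCL2 fell by 0.97. The glycolytic genes PFKL and HK1 fell by 2.35 and 1.20. Ribosomal protein genes fell in 53 of 54 cases (median -0.60). Mitosis genes were higher in 47 of 48 cases (44 of 47 in deep cells), and 15 of 40 replication genes were higher and 5 lower. These 2 counts are a description, since the same number of cycling UMIs chose both groups at unequal depth, medians of 9402 and 9319 UMIs in cycling pro-B cells against 20924 and 23811 in progenitors.

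Whether the change with cycling differed between pro-B cells and progenitors was tested by an interaction. It was called for 5.1% of 10147 genes, 263 (2.59%) with a more positive change in pro-B cells and 255 (2.51%) with a more negative one. With DESeq2's size factors in place of edgeR's TMM factors the split was 309 and 196, and on deep cells 107 and 134. The receptor genes IL7R and FLT3 were among the more negative. IL7R stood at 30.9 and 32.9 CPM in cycling and 22.8 and 21.6 CPM in non-cycling progenitors, the opposite order to pro-B cells (interaction -1.21 ± 0.13, edgeR adjusted p = 8.13e-06). FLT3 stood at 41.1 and 39.4 CPM in cycling and 40.7 and 35.6 CPM in non-cycling progenitors (interaction -0.88 ± 0.18). CCND2 stood at 63.4 and 71.9 CPM in cycling and 93.7 and 130.5 CPM in non-cycling progenitors (interaction -1.04 ± 0.25, edgeR adjusted p = 0.0414). These 3 kept their calls in deep cells, at -1.57, -1.04 and -1.72, as did IGF1 (-4.62 over all cells, -2.67 in deep cells). Without the library block none of these genes kept its call.

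Counts of cell division genes in the interaction are a description, since raw counts of such genes split both lineages, at unequal depth. Of 48 mitosis genes 16 had a more positive change in pro-B cells and 0 a more negative one (7 of 47 and 0 in deep cells), and of 40 replication genes 0 were more positive and 5 more negative (0 and 2 of 39 in deep cells). The interaction was not called for RAG1 (-1.42 ± 2.70), RAG2 (-1.04 ± 2.02) or DNTT (-0.26 ± 0.13), and for the recombinase genes the error was wide, with at most 0.247 CPM in any progenitor group.

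Cycling pro-B cells of the sorted libraries were last compared with those of whole marrow, which were not sorted for CD34. Of 7208 genes 0.347% passed, 0 higher and 25 lower in the sorted cells, and 583 had an unadjusted p under 0.05 (DESeq2 called 121). The lower genes were led by myeloid products. PGLYRP1 had 0 UMIs in sorted cells against 607 in whole marrow, at least 1215.2-fold lower against the floor of 3 counts. S100A12 stood at 0.562 and 0.472 CPM, against 2551, 1515 and 1867 CPM, and LTF, lactoferrin, at 4.50 and 1.89 CPM, against 419, 362 and 267 CPM (-6.76 ± 0.44). The 9 mature neutrophil markers summed to 151 and 157 CPM in sorted and 7973, 5094 and 5269 CPM in whole-marrow cells. These are the genes called, and whether they come from the pro-B cells or from free RNA of neutrophils was not tested. In the 14 lists 0 genes passed in either direction. Without likely doublets 2 genes passed, without marrow 1 87 did, and without sorted library 1 or 2 9 and 10 did.

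With the dog as a block, pairing sorted library 1 with marrow 2 and sorted library 2 with marrow 3 (the order of their numbers, which the labels do not spell out), 554 genes passed, 198 higher and 356 lower (7.69%). Among them DNTT, at 1653 and 1530.1 CPM in sorted cells against 875 and 394 CPM in marrows 2 and 3, gave 1.49 ± 0.17 (edgeR adjusted p = 9.36e-16), against 1.00 ± 0.43 (0.641) without the block. DPEP1 gave 1.42, ASNS 1.08, CCND2 4.19 and KIT 4.13, and PAX5 and IGHM gave -0.90 and -0.75. RAG1 and RAG2 gave -0.13 ± 0.43 and -0.01 ± 0.42 with the block, past no threshold. Marrow 1 has no sorted partner, so all values with the block rest on 2 assumed pairs. Their p-values, small as some are, rest on little measure of the spread.

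Within the cycling pro-B cells, shares of replication and mitosis genes ran against each other. The share of UMIs from the replication list and that from the mitosis list were negatively related across cells (Spearman's rho = -0.45 over 641 cells and -0.54 over 827 cells, across cells that share a library and with no p). The cells of each library were divided into 4 equal bins by the share of UMIs from mitosis genes. From the lowest to the highest bin the median depth went from 12725 to 7951 UMIs in library 1 and from 18305 to 8196 in library 2. PCNA, the replication clamp, went from 133 CPM through 146 and 80.2 to 19.8 CPM in library 1 and from 150.3 through 139 and 56.4 to 10.0 CPM in library 2.

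Several B-lineage genes changed along the same order, which is a description since depth changes with it. DNTT was lowest in the bin with the lowest share of mitosis genes and highest in that with the highest, at 1327, 1431, 1663 and 2383 CPM in library 1 and 833, 1072, 1904 and 3384 CPM in library 2. RAG2 went with it, at 9.21, 12.9, 22.3 and 38.3 CPM and 2.61, 7.56, 10.9 and 33.9 CPM. RAG1 varied less, at 20.3, 21.6, 22.3 and 29.7 CPM and 6.80, 6.25, 4.65 and 16.1 CPM. IGHM increased in both libraries, from 320 to 589 CPM and from 373 to 626 CPM, while CCND2 decreased from 26.2 to 2.64 CPM and from 18.3 to 0.556 CPM, MYC from 47.9 to 14.5 CPM and from 36.3 to 8.34 CPM, and IL7R from 198 to 122 CPM and from 188 to 85.6 CPM.

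**Figure D5:**
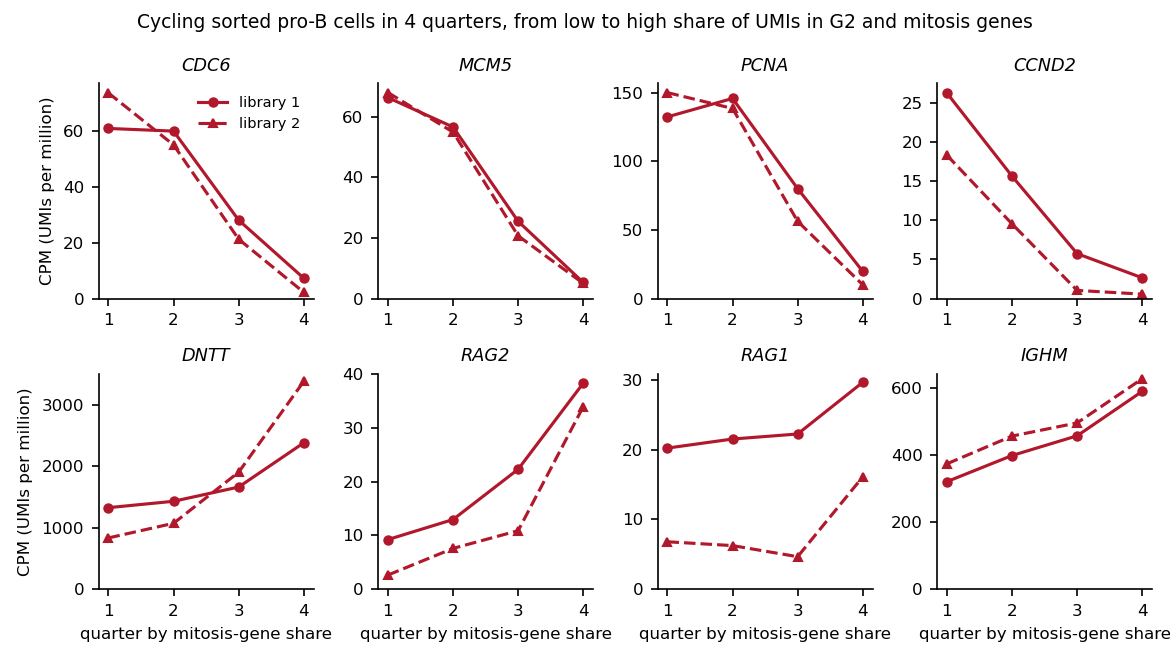
Summed level (CPM, vertical) of 8 genes in cycling sorted pro-B cells divided into 4 equal bins by the share of UMIs in G2 and mitosis genes (horizontal, low to high), for library 1 (solid line, circles) and library 2 (dashed line, triangles). The replication genes CDC6, MCM5 and PCNA and CCND2 are lowest in the last bin, and DNTT, RAG2 and IGHM are highest there in both libraries.

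Across single cycling cells, DNTT was negatively related to UMIs per cell (rho = -0.42 and -0.62), and RAG1 and RAG2 were weakly related to each other (rho = 0.20 and 0.17). CD34 was positively related to UMIs per cell in library 1 and weakly in library 2 (rho = 0.54 and 0.10).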

How the data were processed

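Droplet 3' single-cell libraries of 5 marrow samples from 3 dogs were deposited as raw UMI counts per gene and barcode. The counts were made by the authors with Cell Ranger 7.0.1 per the file headers, while version 7.1.0 and the build CanFam 3.1 are given per the submitters' processing notes. Library totals ran from 46114431 to 70169186 UMIs. The members and the gene lists were chosen with earlier results of these data known.

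Counts were summed per library and group (at least 20 cells) and tested with edgeR 4.0.16 (glmQLFit, glmQLFTest, TMM factors, filterByExpr) with the library as a block, except for sorted against whole marrow. The 2 sorted libraries entered 1 fit with 6 groups of cells each, so the sorted comparisons share 1 estimate of the spread. The labels say that marrows 2 and 3 were sorted but not which sorted library is from which; the dog block took them in the order of their numbers, and the difference between the 2 sorted libraries correlated with that between those marrows (Pearson's r = 0.395 over 3418 genes in cycling pro-B cells). Alternatives were DESeq2 1.42.0 and its size factors, no filter on low counts, stricter cell rules, cells of 10000 to 30000 UMIs, removal of likely doublets (nearest-neighbour scoring against simulated doublets) and leaving out each library. Levels by depth range and the cycling share at 10 VPREB1 UMIs were added after seeing the data. Genes named were drawn from the 10 largest called changes each way per comparison, from the lists and from the markers given for the cells. Intervals for shares are exact binomial at 95%, and the floor for a count of 0 is 3 counts. The tests were tested on simulated data: 69.1% of 2-fold and 88% of 4-fold changes were recovered for cycling against non-cycling sorted cells (10250 genes), 56.7% and 83% for the interaction, where 8% of calls were false, and 18.8% and 88.7% for sorted against whole marrow (7092 genes), where 18.1% of calls were false. The simulated counts had no library effect and no difference between groups other than in the changed genes, so these rates may not hold for the real counts. With 2 or 3 dogs a group, p-values of fits with a library block measure how far differences between groups varied between these libraries. Those of the fit without a block measure the spread between libraries.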

Additional observations from a re-analysis of the deposited data

Results flagged for a closer look

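For 4 genes named above, the change between cycling and non-cycling cells differed between pro-B cells and CD34-positive progenitors by edgeR's interaction test. The difference in log2 fold change, pro-B minus progenitors, was negative for IGF1 (-4.62), IL7R (-1.21), FLT3 (-0.88) and CCND2 (-1.04). In cells of 10000 to 30000 UMIs all 4 kept their calls. Without the library block all 4 lost them, and 1 lost its call with non-cycling cells held to 0 cycling UMIs.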

How the results depend on the processing

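Counts of genes called depended on the fit. For cycling against non-cycling sorted pro-B cells, 3361 calls became 1345 without the replicate block, 2104 at matched depth and 684 at 5% mitochondrial UMIs. In whole marrow 983 became 444 with DESeq2, 480 without the block and 592 to 1127 with each library left out. Against progenitors 4943 became 2778 without the block. The interaction had 518 calls, 300 with DESeq2, 787 without the low-count filter, 241 in deep cells and 2 without the block. Sorted against whole marrow had 25 calls, 121 with DESeq2, 365 without the filter, 554 with the dog as replicate block, 2 without doublets and 9 to 87 with each library left out. The difference in cycling share of -1.14 points ranged from -12.9 to 10.7 points with each library left out, and was 3.47 points without marrow 3. At matched depth the sign turned for RAG2 (0.39), IGHM (0.57), CD72 (1.91), PAX5 (1.22), EBF1 (0.69), TCF3 (0.62), FOXO1 (0.68), BACH2 (0.31), MEF2C (0.22), CXCR4 (0.017) and DCK (0.65). At 5% mitochondrial UMIs it turned for CDK6 (0.051), MYC (0.74), DPEP1 (0.083) and BCL2 (0.14). VPREB3 in whole marrow gave 0.45 with at least 10 VPREB1 UMIs, and RUNX1 against progenitors ranged from -0.36 to 0.020 with each sorted library left out. The cause was not tested. The 5% limit left too few cells for the other comparisons and matched depth too few in whole marrow, so these were not run. Leaving out a sorted library leaves 1 library in the sorted comparisons, which gives values with no test. Over the named genes 1143 tested alternative values kept direction and call, 85 lost the call, 15 gained it, 16 turned and 14 turned with no call in either fit. Values with no test were judged by the gap between the 2 libraries' own ratios, taken without TMM factors. Of them 144 differed from the fit by less than that gap and 41 by more, 1 called value turned and 2 turned with no call. A gene whose libraries lie close together has a small gap, so these counts do not tell stable genes from unstable ones.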
